A study of Mus musculus with 8 samples.

Results

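The 44 genes described here encode the contractile machinery of skeletal muscle and its control: sarcomere proteins, calcium handling proteins, stretch or stress proteins and muscle regulators. They were listed by name, and each was read from the probe that a RefSeq table of mouse genes ties to it, taking the probe with the highest mean over the 8 arrays. A probe was found for 43 of them, out of 20128 genes that the arrays name in this way, and 41 were tested because the probe was well above background on at least 2 arrays. Of the 41, 34 were well above background on all 8 arrays. The remaining members were Smpx, with no matched probe, Myod1, well above background on 0 arrays, and Tnnc1, well above background on 1 array. By role, the list holds 14 fast fibre genes, 11 slow or cardiac-type genes, 12 genes used by all fibres, 4 stretch or stress genes and 3 regulators.

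RNA was taken from skin sections of C57BL/6N mice and measured on single-colour arrays. The groups were hair loss skin of Cchcr1 mutants (2 samples), normal skin of Cchcr1 mutants (4 samples) and normal skin of wild type mice (2 samples). The labels name the genotype as Cchcr1 mutant without the kind of mutation, and age is not given in the sources used here. Each title also has a number, giving Mutant097, Mutant113 and Wild001 samples, followed by a letter. Hair loss samples carry S, and normal skin has 1 A and 1 B sample per number. What the numbers and letters mark is not stated, so p-values measure the spread between these samples, which may be partly technical.

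Mouse skin carries a sheet of striated muscle, the panniculus carnosus, beneath the dermal fat, so a skin section that includes it contains skeletal muscle transcripts. Muscle fibres shorten when myosin heavy chains pull on actin filaments, and troponin and tropomyosin let them do so only when calcium leaves the sarcoplasmic reticulum. Fast and slow fibres use different paralogues of most of these proteins, and several slow fibre genes are also those of heart muscle. In RNA from whole skin, fewer muscle fibres in the section and less of a transcript per fibre cannot be told apart.

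All 8 arrays lay on 1 slide. Its row 1 carried all samples of Mutant097 together with hair loss of Mutant113, and its row 2 carried wild type together with normal skin of Mutant113. The 75th percentile of the signal, to which every level below is relative, ran from 83.1 to 211 intensity units, and 25421 to 30205 probes per array were well above background. Cchcr1 itself lay between -0.07 and 0.49 on the log2 scale on the 8 arrays. Xist was well above background in the 3 samples of Mutant113 only, and the Y-linked genes Ddx3y and Eif2s3y in the 3 samples of Mutant097 and the 2 of Wild001, so title number and sex cannot be told apart.

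Promoter sequences show what the muscle genes share upstream of their start, and 4 are printed for genes whose patterns are set against each other below: Actc1 and Sbk3, which differed between letters A and B, and Acta1 and Myh4, which did not stand apart in this way. RefSeq promoter windows of the 250 bases before the start (build GRCm38.p6) were found for 37 of the 44 genes. Capitals mark CAGCTG (the E-box form bound by MyoD family factors), CArG boxes (bound by serum response factor), MEF2 motifs and TATAAA, searched on both strands. The windows are chr2:114052876-114053125 on the minus strand for Actc1, chr7:4970962-4971211 minus for Sbk3, chr8:123894776-123895025 minus for Acta1 and chr11:67237562-67237811 plus for Myh4.
Actc1: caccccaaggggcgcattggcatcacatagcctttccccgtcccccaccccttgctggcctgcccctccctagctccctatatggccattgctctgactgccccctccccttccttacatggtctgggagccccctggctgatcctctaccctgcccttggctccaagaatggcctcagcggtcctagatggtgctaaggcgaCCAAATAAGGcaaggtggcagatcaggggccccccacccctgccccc
Sbk3: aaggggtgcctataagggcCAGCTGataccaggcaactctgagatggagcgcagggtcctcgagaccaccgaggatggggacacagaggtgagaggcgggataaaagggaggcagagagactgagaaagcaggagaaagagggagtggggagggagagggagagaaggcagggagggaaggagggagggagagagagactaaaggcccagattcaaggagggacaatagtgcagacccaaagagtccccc
Acta1: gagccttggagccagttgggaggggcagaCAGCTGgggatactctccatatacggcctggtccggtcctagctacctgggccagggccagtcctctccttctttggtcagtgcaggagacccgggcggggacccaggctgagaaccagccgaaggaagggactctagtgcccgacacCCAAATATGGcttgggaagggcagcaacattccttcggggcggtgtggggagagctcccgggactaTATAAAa
Myh4: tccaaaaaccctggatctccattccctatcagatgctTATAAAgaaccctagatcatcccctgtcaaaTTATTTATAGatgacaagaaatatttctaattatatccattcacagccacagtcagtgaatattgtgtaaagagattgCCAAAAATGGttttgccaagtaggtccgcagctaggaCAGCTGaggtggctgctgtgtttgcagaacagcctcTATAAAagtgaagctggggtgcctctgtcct
Actc1, Acta1 and Myh4 each held 1 CArG box, starting at -47, -73 and -104 from the first transcribed base. Sbk3 held a single marked motif, CAGCTG at -231, and Actc1 held no CAGCTG. Myh4 held all 4 kinds, and 1 of its 3 TATAAA matches lies inside the MEF2 motif on the other strand. Among the 45 windows of the members (some genes have several starts), 18 held CAGCTG, a share of 40%, against 13% of all 32851 mouse promoter windows of this length. A CArG box was found in 6 of 45 (13.3%, against 1.47% of all windows), a MEF2 motif in 6 of 45 (13.3%, against 2.92%) and TATAAA in 8 of 45 (17.8%, against 12.4%). CACCTG or its complement CAGGTG was found in 11 of 45 (24.4%, against 17.2%), and the general form CANNTG, which includes CAGCTG and CACCTG, in 37 of 45 (82.2%, against 66.2%). Windows of 1 gene can overlap, so these counts can hold the same site more than once. Counted by gene, 16 of 37 held CAGCTG, 5 a CArG box, 6 a MEF2 motif and 8 TATAAA. Of the fast fibre genes 5 of 10 held CAGCTG, of the slow or cardiac-type genes 4 of 10, of the genes of all fibres 7 of 11 and of the stretch or stress genes 0 of 4. These matches describe letters and not binding.

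The first comparison asked how muscle transcripts differ between hair loss skin and normal skin of the mutants. Muscle genes were lower in hair loss skin as a block: 39 of the 41 tested members were lower, with a median difference of -1.58 on the log2 scale, while the median of all 30417 probes tested was -0.01. None passed the threshold, a limma p adjusted over all probes under 0.05 (the lowest among members was 0.710), and of all probes 0% passed. At an unadjusted limma p under 0.05, 25 of 41 members were lower, against 3.41% of all probes. Both hair loss samples lay below all 4 normal skin samples of the mutants for 19 of 41 members, against 6.68% of probes. The count of 25 was 10 without the hair loss sample of Mutant113 and 13 with the slide row as a block.

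The class medians were -1.32 for the 14 fast fibre genes, -1.33 for the 10 tested slow or cardiac-type genes and -1.76 for the 12 genes of all fibres. In the same order they were -0.59, -0.72 and -1.26 without the hair loss sample of Mutant113, -0.90, -0.41 and -1.24 with the slide row as a block, and -1.27, -0.89 and -1.65 under normexp, another background correction. Both hair loss samples were below all mutant normal skin for 3 of 14 fast genes, 5 of 10 slow or cardiac-type genes and 8 of 12 genes of all fibres, and these shares were not tested against each other. On each array, the median deviation of the 41 members from their own means placed the hair loss samples lowest, at -0.71 (Mutant097) and -1.91 (Mutant113). Normal skin of Mutant097 followed at -0.01 (B) and -0.60 (A). Normal skin of Mutant113, at 0.62 (B) and 0.97 (A), and wild type, at 0.54 (B) and 0.85 (A), lay highest and overlapped. These were the arrays of slide row 2, and all others lay in row 1, so this order also follows the row.

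**Figure D1:**
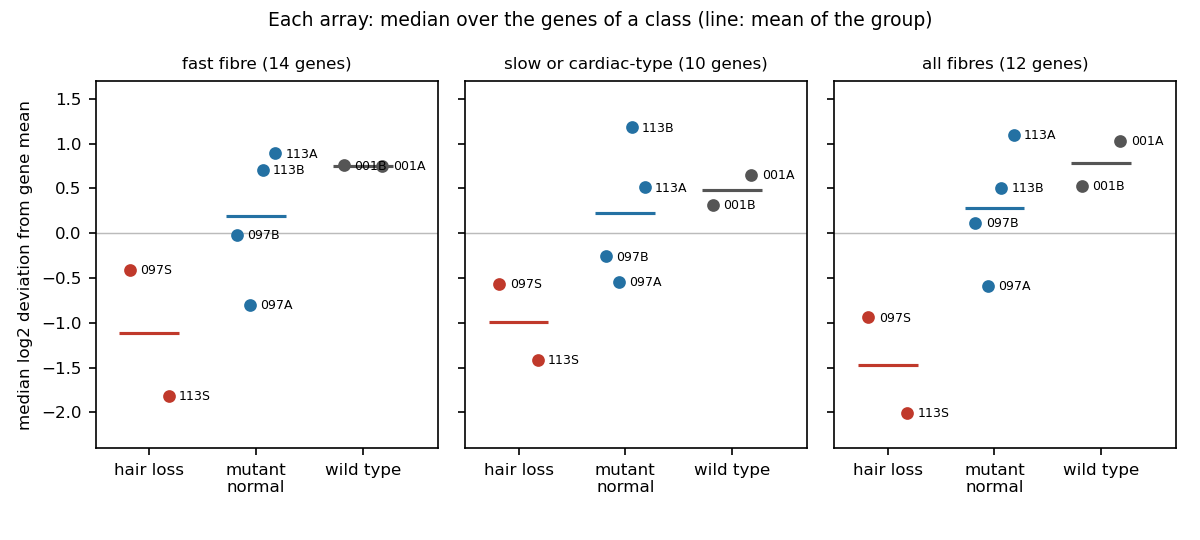
Each point is 1 array, labelled by title number and letter, and shows the median over the genes of a class of the log2 deviation from the gene's mean over 8 arrays (y axis); columns are the groups and lines the group means. Hair loss of Mutant113 is lowest in every class (-1.82, -1.41 and -2.01), while hair loss of Mutant097 lies above letter A normal skin of Mutant097 in the fast class (-0.41 against -0.80).

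**Figure D2:**
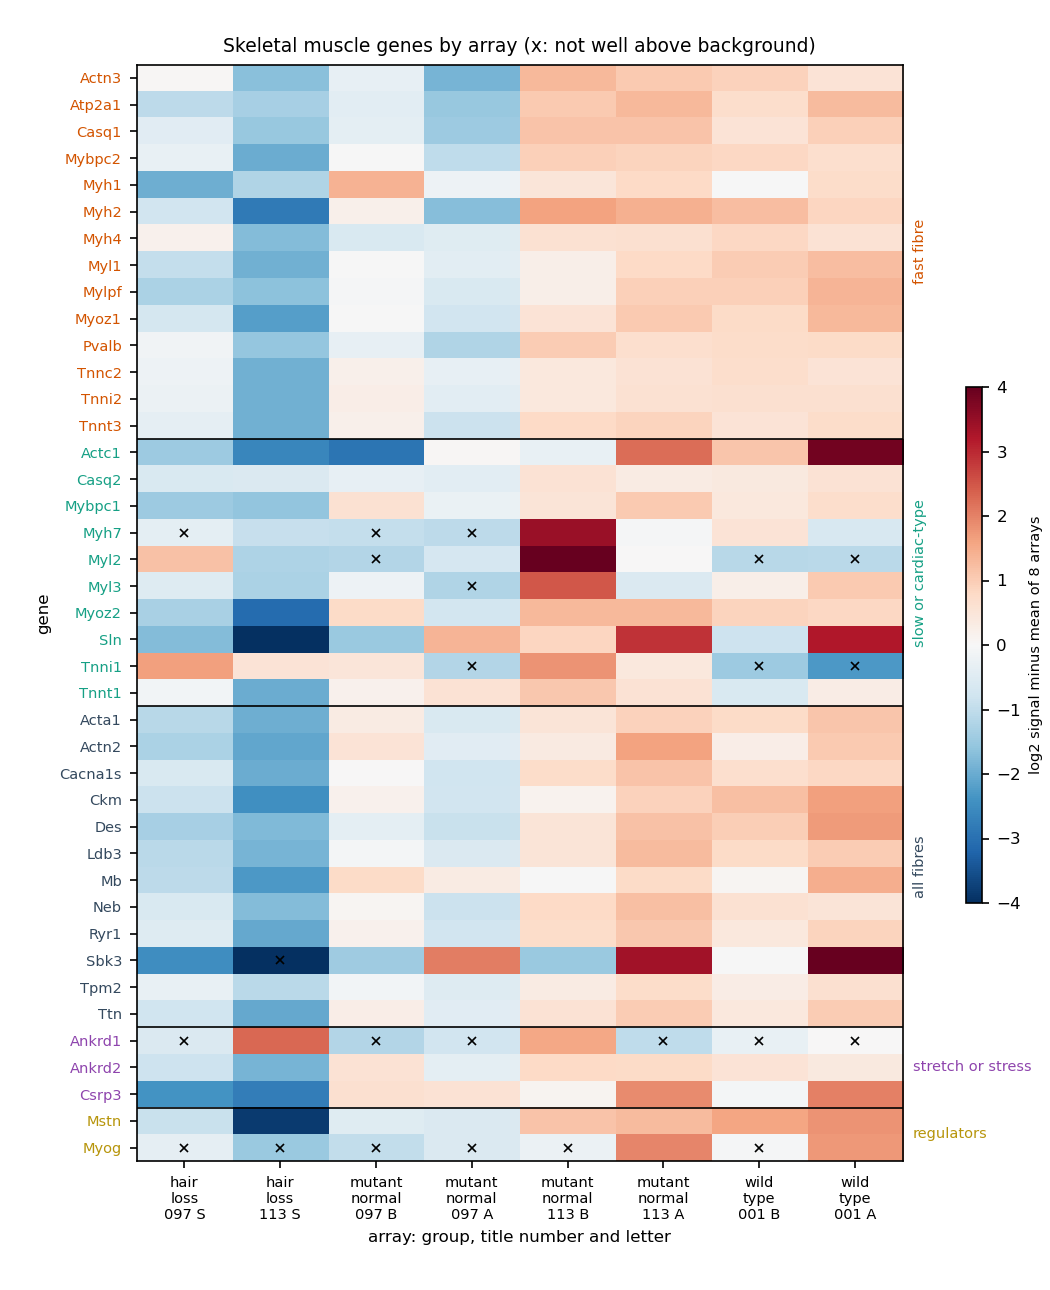
Heat map of the 41 tested genes (rows, grouped by role) on the 8 arrays (columns), coloured by the log2 signal minus the gene's mean over the arrays, with colours limited to 4 either way; crosses mark values not well above background. The column of hair loss Mutant113 is the lowest of 8 for 33 genes, and the share over all probes was not counted. Sbk3, Sln, Actc1, Myh7 and Myl2 depart from the common pattern.

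Levels are given below as log2 of the signal over the 75th percentile of the array, where 0 is that percentile. They follow a fixed order: hair loss Mutant097 and Mutant113, then mutant normal skin as Mutant097 B, Mutant097 A, Mutant113 B and Mutant113 A, then wild type B and A. Levels of different genes are not comparable, since probes differ in brightness.

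Among the fast fibre genes the myosin heavy chains, which set the speed of shortening, did not behave alike. Myh4, the heavy chain of the fastest fibres (type IIB), was at 8.23 and 6.33 in hair loss, at 7.45, 7.57, 8.69 and 8.70 in mutant normal skin and at 8.89 and 8.64 in wild type. Hair loss of Mutant097 was therefore above both normal skin samples of its own number and hair loss of Mutant113 was below every other sample, and the mean difference from mutant normal skin was -0.82 (SE 0.58, limma adjusted p 0.999). Myh2 (type IIA) was at 3.30 and 1.23, at 4.28, 2.36, 5.68 and 5.49, and at 5.29 and 4.92, with overlap between hair loss and normal skin and a difference of -2.19 (SE 0.96, limma adjusted p 0.958). Myh1 (type IIX) was at 3.71 and 4.45, at 7.05, 5.47, 6.15 and 6.45, and at 5.66 and 6.38. Unlike Myh4 and Myh2, Myh1 was lower in both hair loss samples than in all others, and lower in hair loss of Mutant097 than of Mutant113. Its difference from mutant normal skin was -2.20 (SE 0.45, limma adjusted p 0.710).

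The fast light chain and troponin genes were lowest in hair loss of Mutant113. Mylpf, the phosphorylatable fast light chain, was at -1.83 and -2.20 in hair loss, at -0.61, -1.19, -0.33 and 0.39 in mutant normal skin and at 0.39 and 0.78 in wild type. Hair loss was below all normal skin samples for Mylpf, and the difference from mutant normal skin was -1.58 (SE 0.40, limma adjusted p 0.723). Tnnt3, fast troponin T, was at 6.62 and 5.07, at 7.18, 6.15, 7.78 and 7.89, and at 7.53 and 7.73. For Tnnt3, hair loss of Mutant097 lay between the B and A samples of normal skin of its number, so the groups overlapped, with a difference of -1.40 (SE 0.57, limma adjusted p 0.938). Actn3, the fast fibre alpha-actinin of the Z disc, was at 4.22 and 2.51, at 3.86, 2.33, 5.47 and 5.22, and at 5.11 and 4.71. Its A sample of Mutant097 normal skin was the lowest of the 8 and hair loss of Mutant097 was above both normal skin samples of that number. The difference for Actn3 was -0.86 (SE 0.88, limma adjusted p 0.999).

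The calcium handling genes of fast fibres did not separate hair loss from mutant normal skin. Atp2a1, the calcium pump of the fast sarcoplasmic reticulum, was at 2.03 and 1.74 in hair loss, at 2.64, 1.56, 4.13 and 4.36 in mutant normal skin and at 3.77 and 4.35 in wild type. The lowest value was again the A sample of Mutant097. Pvalb, the calcium buffer parvalbumin, was at 6.999 and 5.59, at 6.83, 5.93, 8.15 and 7.82, and at 7.87 and 7.91. Hair loss overlapped mutant normal skin in both genes, with differences of -1.29 for Atp2a1 (SE 0.74, limma adjusted p 0.993) and -0.89 for Pvalb (SE 0.64, limma adjusted p 0.999). The 6 other fast genes (Myl1, Tnnc2, Tnni2, Mybpc2, Casq1 and Myoz1) differed by -1.66 to -1.09.

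Slow or cardiac-type genes fell into several patterns. Myl2, the slow regulatory light chain, was at -1.55 and -3.98 in hair loss, at -3.89, -3.40, 1.36 and -2.72 in mutant normal skin and at -3.85 and -3.82 in wild type, the values of Mutant097 B and of both wild type samples being not well above background. Myh7, the slow and cardiac beta myosin heavy chain, was at -3.23 and -3.78, at -3.81, -3.90, 0.60 and -2.89, and at -2.32 and -3.48, and was not well above background in hair loss or normal skin of Mutant097. Both genes were thus high in 1 sample, letter B normal skin of Mutant113, which exceeded the next highest array by 2.91 for Myh7 and by 2.92 for Myl2. Without that sample their differences between hair loss and mutant normal skin turned from -1.005 to 0.03 for Myh7 and from -0.60 to 0.57 for Myl2, and neither difference was called with it (limma adjusted p 0.999 for each).

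The other slow troponins and light chains showed the same sample on top. Myl3, the slow essential light chain, was at 0.16 there and between -3.57 and -1.28 in the other 7. Tnnc1, slow and cardiac troponin C, was at -4.68 and -6.72 in hair loss, at -5.71, -5.78, -3.59 and -5.34 in mutant normal skin and at -5.30 and -5.98 in wild type. It was well above background in letter B of Mutant113 only and was not tested. Tnni1, slow troponin I, was at -1.87 and -2.97, at -3.03, -4.69, -1.73 and -3.09, and at -4.96 and -5.81, with Mutant097 A and both wild type samples not well above background. For Tnni1 the sample on top led hair loss of Mutant097 by 0.15 only, and the difference between hair loss and mutant normal skin was positive, at 0.71 (SE 0.74, limma adjusted p 0.999). Tnnt1, slow troponin T, was at 0.75 and -1.14, at 1.01, 1.43, 1.93 and 1.45, and at 0.25 and 1.17. Hair loss lay below all mutant normal skin for Tnnt1 (-1.65, SE 0.52, limma adjusted p 0.814) but overlapped wild type. Letter B of Mutant113 was the highest of 8 for 6 of the 10 tested slow or cardiac-type genes, 4 of 14 fast genes and 0 of 12 genes of all fibres. The share of all probes for which that array was highest was not counted.

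**Figure D3:**
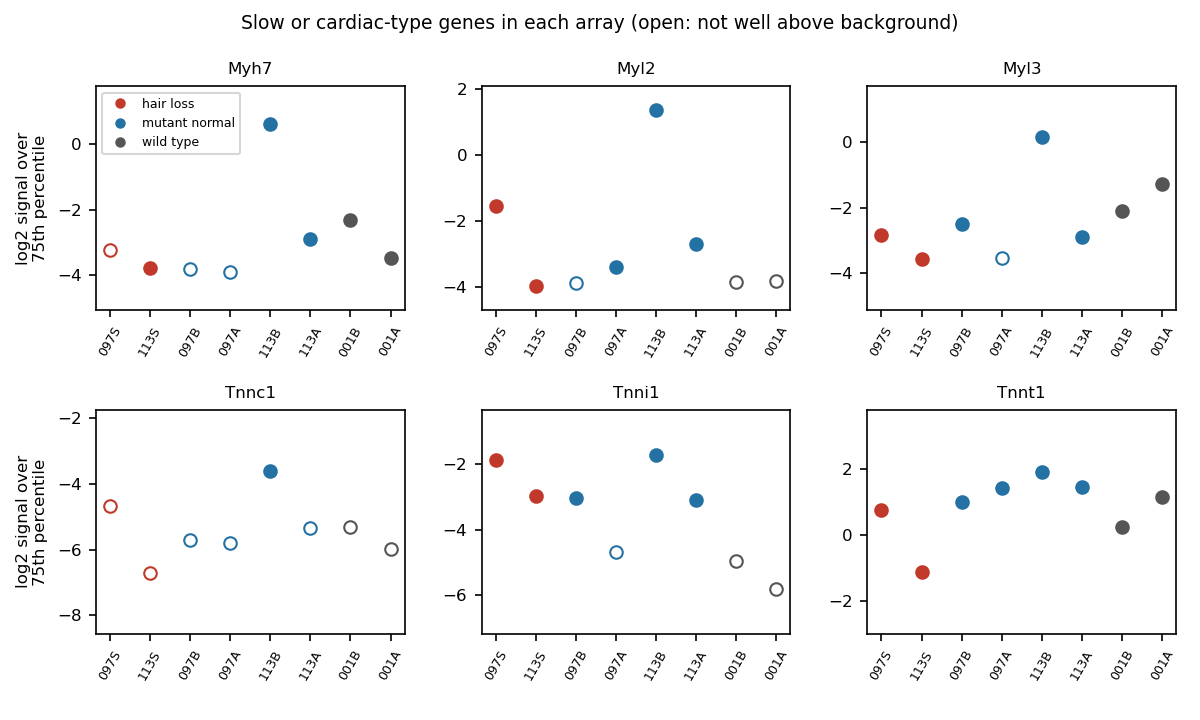
Each panel shows 1 slow or cardiac-type gene as log2 signal over the 75th percentile of the array (y axis, the same span in every panel) for the 8 arrays (x axis, title number and letter); open circles are not well above background. Letter B normal skin of Mutant113 is highest in all 6 panels, at 0.60 for Myh7, 1.36 for Myl2 and 0.16 for Myl3. Not all genes of the class are shown, and Actc1 and Sln, left out here, were highest in letter A of wild type.

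Casq2, the cardiac and slow calsequestrin that buffers calcium in the sarcoplasmic reticulum, was at -2.80 and -2.75 in hair loss, at -2.51, -2.59, -1.60 and -1.86 in mutant normal skin and at -1.79 and -1.60 in wild type. Its values split by slide row: the 4 arrays of row 1 were all below the 4 of row 2. The split was not particular to Casq2. It also held for the median deviation of the 41 members and for genes of other roles, among them Myh4, Acta1, Des and Mstn. It did not hold for Myh1, Ckm or Csrp3. For Casq2 the difference between hair loss and mutant normal skin was -0.64 (SE 0.30, limma adjusted p 0.985). Mybpc1, slow myosin binding protein C, and Myoz2, the Z disc protein calsarcin of slow fibres, differed by -1.99 (SE 0.34) and -2.85 (SE 0.67), both with a limma adjusted p of 0.710 and with hair loss below all normal skin of the mutants.

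Actc1 and Sln differed by a wide margin between samples of one group. Actc1, cardiac alpha-actin, which skeletal muscle makes during development and regeneration, was at -1.44 and -2.60 in hair loss, at -2.90, 0.07, -0.26 and 2.27 in mutant normal skin and at 1.14 and 3.89 in wild type. Sln, sarcolipin, a small inhibitor of the reticulum calcium pump, was at -0.12 and -2.64, at 0.12, 2.98, 2.46 and 4.50, and at 0.78 and 4.82. In normal skin every A sample was above the B sample of its number for both genes. Differences between hair loss and mutant normal skin were -1.81 for Actc1 (SE 1.33, limma adjusted p 0.999) and -3.89 for Sln (SE 1.44, limma adjusted p 0.928).

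Genes used by all fibres were lower in hair loss than in mutant normal skin for 12 of 12. Acta1, the main actin of skeletal muscle, was at 6.22 and 5.36 in hair loss, at 7.64, 6.72, 7.83 and 8.24 in mutant normal skin and at 8.09 and 8.44 in wild type. Ckm, muscle creatine kinase, was at 3.08 and 1.47, at 4.11, 3.16, 4.06 and 4.84, and at 5.14 and 5.56. Both hair loss samples were below every normal skin sample for both genes, by a mean of -1.82 from mutant normal skin for Acta1 (SE 0.43, limma adjusted p 0.710) and -1.77 for Ckm (SE 0.54, limma adjusted p 0.790). For Ckm the wild type samples were also above all 4 mutant normal skin samples.

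Des, the intermediate filament desmin, which smooth muscle also makes, was at 0.48 and 0.04 in hair loss, at 1.42, 0.91, 2.33 and 2.995 in mutant normal skin and at 2.81 and 3.52 in wild type. Ttn, the giant elastic protein titin, was at 3.97 and 2.72, at 5.05, 4.32, 5.35 and 5.80, and at 5.20 and 5.78. Hair loss was below all other samples in both, with differences from mutant normal skin of -1.65 for Des (SE 0.55, limma adjusted p 0.874) and -1.79 for Ttn (SE 0.47, limma adjusted p 0.743). Of the 12 genes of all fibres, 11 were lower at an unadjusted limma p under 0.05, and the exception was Tpm2 (-0.80), a tropomyosin also made by smooth muscle. The full range over the 12 was -3.86 to -0.80, with the value of -3.86 for Sbk3, a member of the SBK kinase family. Sbk3 was not well above background in hair loss of Mutant113, so its value rests in part on a background reading.

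Among the stretch or stress genes, Csrp3 (muscle LIM protein) was at -0.25 and -0.63 in hair loss, at 2.78, 2.73, 2.24 and 4.04 in mutant normal skin and at 2.08 and 4.16 in wild type. Within Mutant097 alone the difference for Csrp3 was -3.01, more negative than the median of the members within Mutant113 (-2.68). Ankrd2, a stretch responsive ankyrin repeat protein, was at -0.53 and -1.58, at 0.86, -0.09, 1.096 and 1.04, and at 0.82 and 0.68. Hair loss was below all other samples for both genes, with differences from mutant normal skin of -3.39 for Csrp3 (SE 0.64) and -1.78 for Ankrd2 (SE 0.41), both with a limma adjusted p of 0.710.

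Ankrd1, the cardiac ankyrin repeat protein, was well above background on 2 arrays, hair loss of Mutant113 at -2.63 and letter B normal skin of Mutant113 at -3.39. Its other values, -5.50 in hair loss of Mutant097, -5.21 and -4.92 in wild type, and -6.09, -5.67 and -5.94 in the remaining normal skin of mutants, were not well above background. Ankrd1 and Tnni1 were the only 2 tested members with a higher mean in hair loss than in mutant normal skin, and for Ankrd1 (1.21, SE 0.95, limma adjusted p 0.999) the sign rested on hair loss of Mutant113 (-0.23 without it).

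Of the regulators, Mstn, myostatin, the secreted inhibitor of muscle growth, was at -0.91 and -3.86 in hair loss, at -0.51, -0.59, 1.11 and 1.24 in mutant normal skin and at 1.56 and 1.77 in wild type. Its A and B samples of normal skin differed by only -0.08, 0.13 and 0.20 in Mutant097, Mutant113 and Wild001. Myog, myogenin, the factor of muscle differentiation, was well above background in letter A of Mutant113 (-3.11) and of wild type (-3.35) only, and between -6.57 and -5.14 elsewhere. Myod1, the factor of muscle commitment, lay between -6.51 and -4.63 and was not well above background anywhere. For Mstn the difference between hair loss and mutant normal skin was -2.69 (SE 0.86, limma adjusted p 0.815), and for Myog, with hair loss and most normal skin at background, no fold is given.

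Each mutant number had 1 hair loss sample, and the size of the difference was not the same in both. The fit of these differences takes its spread from the A and B pairs of normal skin alone, so each lone hair loss sample is assumed to vary like normal skin, and the p-values hold no spread between hair loss samples. In Mutant097 the median of the 41 members was -0.23. Hair loss was below both normal skin samples for 19, between them for 14 and above both for 8. Of all 30417 probes there, 12349 were below both and 10542 above both, so the counts of members lay near those of all probes. In Mutant113 the median was -2.68, and hair loss was below both for 39 members, against 10037 of all 30417 probes. At an unadjusted limma p under 0.05, 3 members were lower in Mutant097 (7.33% of all probes were) and 33 in Mutant113 (3.53% of all probes were). Within Mutant097, 0 members passed the adjusted threshold, as 0.628% of probes did.

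Within Mutant113, Mstn differed by -5.03 on the log2 scale (limma adjusted p 0.0282, with 1 hair loss sample) and was the only probe of the 30417 to pass, 0.00329% of them. The spread behind that p comes from A and B pairs that differ by -0.08, 0.13 and 0.20. That call was lost when no filter on background was applied. Under normexp background correction the median of the members within Mutant113 was -2.365. Further members and other probes passed there, so what passes within Mutant113 depends on the background correction. Sbk3 was not well above background in hair loss of Mutant113, where it was at least 26.8-fold lower than the mean of normal skin of that number. That mean joins letters B and A, which lay far apart for Sbk3, so the bound does not hold for letter B alone. An "at least" value sets the brighter group against a floor, on each dim array the higher of the probe's own signal and the lowest signal of any probe well above background.

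The difference in Mutant113 minus that in Mutant097 was fitted in the same model, and it sets 1 hair loss sample against 1, with the spread again taken from normal skin. It therefore compares these samples, and title number and sex cannot be told apart in it. Its median was -2.43, 39 of 41 members were more negative in Mutant113, and 25 of 41 were so at an unadjusted limma p under 0.05, against 4.97% of all probes. None passed the adjusted threshold, nor did any probe (0%). Myh4 (-3.08, SE 0.31) and Mstn (-4.68, SE 0.30) came nearest, each with a limma adjusted p of 0.071. Under normexp these differences were -2.93 for Myh4 and -2.43 for Mstn. The members with hair loss above both normal skin samples in Mutant097 and below both in Mutant113 numbered 6, of which Myh4, Actn3 and Pvalb were fast fibre genes. Csrp3 (-0.76, SE 1.46), Myh1 (0.69, SE 0.96) and Mybpc1 (-0.72, SE 0.62) showed the smallest gaps among genes with lower hair loss in both numbers.

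**Figure D4:**
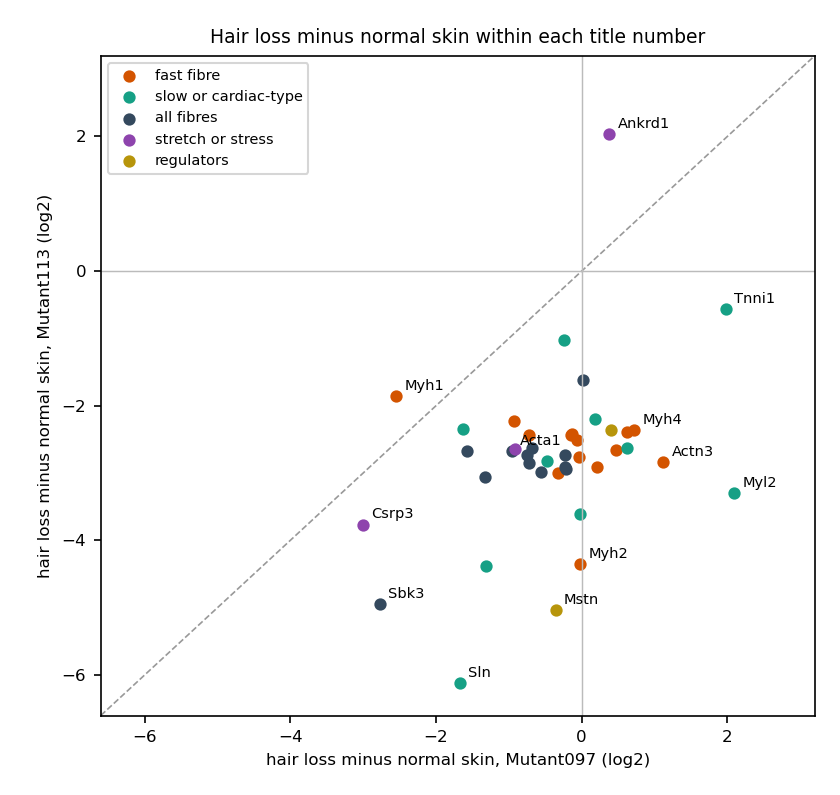
Each point is 1 of the 41 tested genes: the log2 difference between hair loss and the mean of the normal skin samples in Mutant097 (x axis) against the same in Mutant113 (y axis), coloured by role; the dashed line marks equal differences. Most genes lie near -2.68 on the y axis whatever their x value, and Myh1 and Ankrd1 lie above the line.

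Several measurements moved with these values. Hair loss of Mutant113 lay in row 1 of the slide and its normal skin in row 2, so row and lesion cannot be told apart in that number, while the 3 samples of Mutant097 shared row 1. Markers of the hair shaft had a median difference of 4.03 in Mutant097 and -0.41 in Mutant113 (7 genes), and their part in the result was not tested. In normal skin, 40 of 41 members were higher in Mutant113 than in Mutant097, with a median of 1.20, and 21 of 41 were so at an unadjusted limma p under 0.05, against 8.63% of all probes. Normal skin of Mutant113 lay in row 2 and that of Mutant097 in row 1, so row, sex and title number cannot be told apart there. Mstn was called in that comparison of normal skin (higher by 1.72, limma adjusted p 0.0444, lost with no filter), as were 0.266% of probes. Normexp called 10 of 41 members and 468 of 30417 probes. Myh7, not well above background in normal skin of Mutant097, was at least 5.65-fold higher in that of Mutant113 (limma adjusted p 0.33).

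The comparison of normal skin between mutants and wild type concerns genotype, although Wild001 is the only wild type number. The members were lower in mutants by a median of -0.44 (all probes, -0.04), with 36 of 41 lower, and 0 members passed the adjusted limma threshold, which 0.694% of probes did. Markers of other cells differed too. Hair shaft keratins were higher in mutants for 7 of the 7 tested, and 6 were called. Their summed signal was 158 to 1014 times the 75th percentile in mutant normal skin and 1.33 to 2.11 times in wild type. Fibroblast genes were lower for 5 of 5, with a median of -0.96 and 0 called. The part of these markers in the muscle values was not tested. At an unadjusted limma p under 0.05 only 3 members were lower (Mylpf, Myl1 and Ckm), against 9.1% of all probes. With the slide row as a block, which compares Mutant113 with wild type within row 2, the median turned to 0.17. Mutant113 showed Xist and Wild001 the Y-linked genes, so genotype and sex cannot be told apart within row 2. Without letter A of Mutant097 the median was -0.15. Tnni1 went the other way, higher in mutants by 2.25 (SE 0.74, limma adjusted p 0.200), or at least 1.18-fold, since both wild type samples were not well above background. Myl2, also not well above background in wild type, was at least 2.32-fold higher in mutants (limma adjusted p 0.573), with letter B of Mutant113 at 1.36 and the other 3 mutant samples between -3.89 and -2.72. For Actc1 the difference, mutant minus wild type, was -2.72 (SE 1.33, limma adjusted p 0.341).

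Against wild type, hair loss skin was lower for 38 of 41 members, with a median of -1.94 (all probes, -0.06). In the same comparison hair shaft keratins were higher for 7 of the 7 tested, and 6 were called. Their summed signal in hair loss was 631 to 1843 times the 75th percentile. Fibroblast genes were lower for 5 of 5 (median -0.97) and smooth muscle genes for 7 of 9 (median -0.99), both lists with 0 called. The part of these markers in the result was not tested. Myl1 and Mylpf, the essential and regulatory light chains of fast myosin, fell and were the 2 members called, against 1.42% of all probes. Myl1 was at 6.31 and 5.34 in hair loss, at 7.24, 6.83, 7.50 and 8.05 in mutant normal skin and at 8.26 and 8.49 in wild type, an ordered series of groups without overlap. It fell by 2.55 (SE 0.44, limma adjusted p 0.0427), and Mylpf by 2.60 (SE 0.46, limma adjusted p 0.0466). For both genes every array of slide row 1 was below every array of row 2. Hair loss lay only in row 1 and wild type only in row 2, so row and group cannot be told apart here. The calls were lost, leaving 0 members, without either hair loss sample, without either wild type sample or without letter B normal skin of Mutant097, with the slide row as a block, with 1 mean per title number, and with no filter. Under normexp 6 of 41 members were called, as were 529 of 30417 probes. Among probes well above background on all 8 arrays, 7 of 34 members were called, as were 510 of 23014 probes.

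At an unadjusted limma p under 0.05, 30 of 41 members were lower in hair loss than in wild type, against 13.6% of all probes, and the count was 9 with the slide row as a block, 19 with 1 mean per title number, 17 without the hair loss sample of Mutant113 and 18 without letter A of wild type. Both hair loss samples were below both wild type samples for 36 of 41, against 28.5% of probes. This held for 14 of 14 fast genes and 12 of 12 genes of all fibres, and for 6 of 10 slow or cardiac-type genes. Tnni1 was higher in hair loss than in wild type by 2.96 (SE 0.85, limma adjusted p 0.101), or at least 1.93-fold, and Myl2 at least 1.53-fold (limma adjusted p 0.708). The comparisons with wild type and with mutant normal skin share the hair loss samples.

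In normal skin, letters A and B were compared within each number. Most members did not separate: the median difference, A minus B, was -0.05 over the 41 (all probes, -0.0033), and 0 members passed the adjusted limma threshold, as did 0% of all probes. A small set stood apart in size. Sbk3 was at 1.42, 2.75 and 3.36 in the A samples of Mutant097, Mutant113 and Wild001 and at -2.04, -2.09 and -0.63 in the B samples, so that A and B did not overlap. Its mean difference of 4.10 (SE 0.30, limma adjusted p 0.330) was the highest of all 30417 probes tested.

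Sln was higher in A by 2.86, 2.04 and 4.04 in the 3 numbers, a mean of 2.98 (SE 0.41, limma adjusted p 0.643). Actc1 was higher by 2.96, 2.53 and 2.76, a mean of 2.75 (SE 0.17, limma adjusted p 0.311). They ranked 7 and 12 among all probes for A over B. A exceeded B by more than 1 in each of the 3 numbers for these 3 members and for 0.135% of all probes. A exceeded B by any amount in all 3 numbers for 4 of 41 members, against 12.2% of probes, so the members as a whole did not lean to A. At an unadjusted limma p under 0.05, 5 members were higher in A (Actc1, Sln, Sbk3, Csrp3 and Myog), against 2.56% of probes. Under normexp Actc1, Sln and Sbk3 were called, with limma adjusted p of 7.79e-06, 5.73e-07 and 5.61e-09. Of all 30417 probes, 39 were called there.

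Csrp3 joined these genes in part. It was higher in A by 1.80 in Mutant113 and by 2.08 in Wild001, but differed by -0.05 in Mutant097, a mean of 1.28 (SE 0.46, limma adjusted p 0.983). Myog was well above background only in A samples, in those of Mutant113 and Wild001. Tnni1 ran the other way, with A minus B of -1.66, -1.36 and -0.85 and a mean of -1.29 (SE 0.21, limma adjusted p 0.690), some of these samples being not well above background. Among the fast fibre genes A exceeded B in all 3 numbers for 0 of 14, and their differences ran from -0.83 to 0.18.

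**Figure D5:**
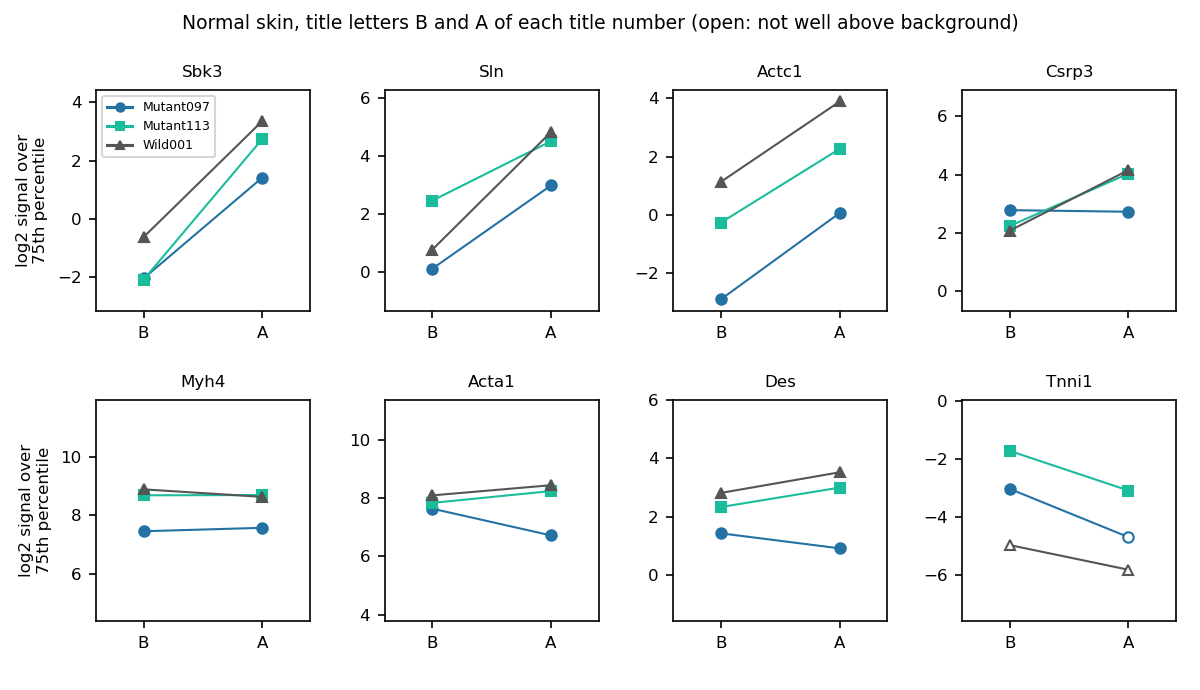
Log2 signal over the 75th percentile of the array (y axis, the same span in every panel) in the B and A normal skin samples (x axis), with a line per title number; open symbols are not well above background. Sbk3, Sln and Actc1 are higher in A in all 3 numbers, while Myh4 and Acta1 differ in mean by -0.04 and -0.05.

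A list of 41 other muscle fibre genes that are not among the members, of which 40 were tested, gave a median of -1.57 between hair loss and mutant normal skin. It had 39 of 40 lower and 33 lower at an unadjusted limma p under 0.05, and 0 passed the adjusted threshold. Against wild type 38 of 40 were lower in hair loss. Where a member had a further probe, as 9 members did, that probe gave a difference of the same sign between hair loss and mutant normal skin in every case, with values from -1.98 to -0.65.

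Markers of other cells were read beside the muscle genes. Smooth muscle genes were lower in hair loss than in mutant normal skin for 9 of 9, with a median of -0.49, and their summed signal overlapped between groups (103 to 131 in hair loss, 114 to 156 in mutant normal skin, 122 to 131 in wild type). On the same linear scale, relative to the 75th percentile of the array, the summed signal of the 41 members was 573 to 1615 in hair loss, 1443 to 3435 in mutant normal skin and 3344 to 3546 in wild type. Medians between hair loss and mutant normal skin were near 0 for fat cell genes (-0.08, 7 genes) and epidermal genes (0.04, 6 genes). Hair shaft keratins were higher for 7 of 7, with a median of 1.76 and 0 called, and their summed signal overlapped (631 to 1843 in hair loss, 158 to 1014 in mutant normal skin). The satellite cell genes Chrdl2 and Cdh15 differed by -1.24 and -1.30, and the embryonic or heart genes Myh8, Tnnt2, Tnni3 and Nppb by -1.105, -0.86, -0.16 and 1.53, with 0 of these 6 called. Chrdl2 was well above background on 2 arrays only. For Nppb both hair loss samples were above all mutant normal skin. The heart genes Myh6 and Nppa and the satellite cell genes Pax7 and Myf5 were not well above background on any array. Myh8, a neonatal myosin close to Myh4 in sequence, was at 8.56 and 6.82 in hair loss, the order seen for Myh4, and how far probes of the myosin genes bind each other's transcripts was not tested.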

How the data were processed

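Cy3-labelled RNA of each skin sample was hybridised to 1 Agilent mouse array. Per the file headers, the deposited signal is an intensity that the authors' run of Agilent Feature Extraction (11.5.1.1, per the submitters' processing notes) corrected for background and spatial trend. The deposited matrix of the authors holds log2 values, which lay within 0.01 of the log2 intensity after 1 shift per array. Levels here are the log2 processed intensity after subtraction of the array's own 75th percentile, with outlier spots left out and the spots of each probe averaged.

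Probes well above background on at least 2 of 8 arrays (30417) were tested with limma 3.58.1 in R 4.3.3, two-sided, with Benjamini-Hochberg adjustment over all of them and calls at adjusted p under 0.05. The 3 groups were fitted together on 8 arrays; letters A and B were fitted on the 6 normal skin arrays with the title number as a term; effects within numbers came from a model of group by number. The scripts were tested on simulated data.

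The 44 members, their roles and the other lists were chosen with earlier results of these data known. Named genes followed a rule: values in every sample for 26 members spread over the roles, the rest by range and count, and every called member by name. Alternatives were quantile normalization, normexp background correction (offset 50), the deposited log2 matrix, no filter, a filter on all 8 arrays, slide row or title number as a block, 1 mean per title number, the mean over the probes of a gene and each array left out. Normexp used the median intensity in place of the mean that had been planned, a choice made after seeing the data. Counts at an unadjusted p under 0.05 were added as well. Genes were named through RefSeq accessions (GRCm38.p6), while the array design names mm9, so only promoter windows carry coordinates. The number of arrays limits the precision. The calls among the other muscle fibre genes between hair loss and wild type are not reported here.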

Additional observations from a re-analysis of the deposited data

Results flagged for a closer look

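Ankrd1, the cardiac ankyrin repeat gene, had 1 sample of mutant normal skin far from the others. Letter B of Mutant113 stood at -3.39 on the log2 scale, and the gap to the next of the 4 samples was 0.846 of the whole range, above Dixon's critical value for a group of this size. It was the only flag among 28 members examined, and chance flags about 1 in 20 groups.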

How the results depend on the processing

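For hair loss against mutant normal skin, 0 members were called under every alternative run, and the median of -1.58 was -0.99 with the slide row as a block and -2.13 to -0.93 when 1 array was left out. With the title number as a replicate block the median was -1.58 and 0 members were called. For mutant normal skin against wild type, 0 members were called throughout, and the median of -0.44 was -0.29 under normexp, 0.17 with the row block and -0.63 to -0.15 when 1 array was left out. For hair loss against wild type, the 2 calls became 6 under normexp (529 of 30417 probes) and 7 with the filter on all 8 arrays (510 of 23014 probes). The calls became 1 with the mean over the probes of a gene (356 of 25996 genes and unnamed probes). They became 0 with no filter (183 of 55603 probes) or the row block (1332 of 30417 probes). When 1 array of mutant normal skin was left out, 0 to 4 members were called, against 261 to 708 of 30417 probes. The median of -1.94 was -1.11 with the row block and again -1.94 with 1 mean per title number. The row block compares hair loss with normal skin of Mutant097 within row 1, and normal skin of Mutant113 with wild type within row 2. Hair loss and wild type share no row, so their row block values join these 2 steps. The block also takes up the whole difference between normal skin of Mutant113 and of Mutant097, which differ in number and sex. Mutant113 and Wild001 differ in sex too, so genotype and sex cannot be told apart in the step within row 2.

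For letters A and B, the 0 calls became 3 under normexp (39 of 30417 probes). The median of -0.05 was -0.024 under quantile normalization, 0.0038 under normexp and 0.27, -0.13 and -0.19 without Mutant097, Mutant113 and Wild001. For the difference between numbers, the 0 calls became 9 under normexp and 1 with the filter on all 8 arrays.

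Single genes changed sign as follows. For hair loss against mutant normal skin, the row block turned Actn3 to 0.27, Myh7 to 0.35 and Myl2 to 0.88. Leaving out 1 array gave -1.77 to 0.13 for Myh4, -1.47 to 0.027 for Myh7, -1.82 to 0.61 for Myl2, -0.23 to 2.64 for Ankrd1. Against wild type, the row block turned 5 members: Actn3 to 0.70, Casq1 to 0.34, Pvalb to 0.013, Myh7 to 2.10 and Myl3 to 0.13, and normexp turned Ankrd1 to -0.063. Leaving out 1 array gave -0.14 to 2.285 for Myl2, -1.84 to 0.042 for Tnnt1, -0.44 to 2.43 for Ankrd1. For mutant normal skin against wild type, the row block turned 21 of 41 members. Leaving out 1 array turned at most 8 there, without letter A of wild type. The difference of Csrp3 between the numbers ran from -1.66 to 0.14 when 1 array was left out. The causes were not tested. Probes near background, such as those of Myog, Ankrd1 and Myl2, limit these values.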
